A study of Homo sapiens with 8 samples.

Results

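The genes described here are 46 genes of the G1/S transition and of DNA replication, taken by symbol from a table of 32803 symbols: cyclins and their kinases, RB1 and E2F factors, origin licensing and helicase genes, polymerase and clamp genes, and genes of deoxynucleotide supply. All 46 were among the 16221 genes with enough counts to be tested. RNA-seq counts came from UWB1.289, an established line from an ovarian carcinoma with no working BRCA1, from the same line with BRCA1 restored, and from one line resistant to PARP inhibitors derived from each. The 4 groups were Olres-UWB1.289+BRCA1 at passage 45 (resistant proficient), UWB1.289+BRCA1 at passage 10 (parental proficient), Olres-UWB1.289 at passage 56 (resistant deficient) and UWB1.289 at passage 29 (parental deficient). Every group was grown in medium without drug and held 2 libraries (n = 2 throughout). Resistance and a later passage go together in both backgrounds and cannot be told apart, and each resistant group is a single derived line.

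Entry into S phase is driven by cyclin D with CDK4 or CDK6 and by cyclin E with CDK2, which phosphorylate RB1 and free the E2F factors that RB1 holds. E2F factors then raise transcription of much of the replication machinery, including their own genes. Origins are licensed in G1, when ORC, CDC6 and CDT1 load the MCM2-7 helicase ring, and fired in S phase, when CDC7 and CDK2 activity adds CDC45 and GINS to it. PARP inhibitors, which trap PARP1 on DNA, do most harm to cells in S phase, and BRCA1 protects stalled forks besides repairing breaks. In bulk RNA a smaller share of cells in S phase and less mRNA per cell cannot be told apart.

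The libraries held 24094821 to 34394107 counts. BRCA1 itself, the check of the labels, stood at 2176 and 2365 CPM (counts scaled to the TMM-adjusted library total) in resistant proficient, 212 and 191 CPM in parental proficient, 34.7 and 34.8 CPM in resistant deficient and 36.0 and 35.1 CPM in parental deficient libraries. The epithelial genes EPCAM and KRT8 and the Mullerian factor PAX8 were expressed in every library, with PAX8 at 199 to 303 CPM. Of all 10 such genes listed, 6 were at least 2-fold lower in parental proficient than in parental deficient cells, and 1 was higher. Of all genes tested 30.1% were called lower at any size and 32.3% higher. With the GC trend described below removed, 6 of the 10 were lower, 2 of them at least 2-fold, and 2 were higher. Of all genes 31.0% were then lower and 33.5% higher. The median of the 10 was -1.04 as deposited and -0.27 with the trend removed. With resistance in proficient cells the log2 changes of the 10 ran from -0.54 to 5.23. The 5 leukocyte genes listed summed to 18.6 to 29.9 CPM across the libraries. Of 5 stromal genes, PDGFRB, DCN and LUM stayed under 1 CPM in every library. The 5 summed to 29.8 to 30.7 CPM in resistant proficient, 47.2 to 47.7 CPM in parental proficient, 4.39 to 9.75 CPM in resistant deficient and 48.7 to 58.0 CPM in parental deficient libraries. COL1A2 made up most of that sum in every group but the resistant deficient one, where COL1A1 did. The 3 endothelial genes summed to 4.49 to 4.68 CPM in resistant proficient, 2.49 to 3.99 CPM in parental proficient, 41.7 to 45.3 CPM in resistant deficient and 38.6 to 41.1 CPM in parental deficient libraries. Their part in the results was not tested. Libraries differed in how counts followed the GC content of transcripts. At the 90th percentile of GC (61.6%) the fitted trend deviated from its mean over all libraries by a log2 of -0.33 and -0.63 in resistant proficient, -0.63 and -0.46 in parental proficient, 1.08 and 0.67 in resistant deficient and 0.22 and 0.076 in parental deficient libraries. Each comparison below is therefore given on the counts as deposited and again with this trend removed from each library. The trend goes with the groups, and the 2 cannot be told apart. Reads of CCNE2, CDK4, RB1, E2F3, ORC1, MCM7, GINS2, RFC5 and TYMS are uncertain to the extent that another coding gene overlaps them.

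Many of these genes carry E2F-type letters close to their start. The 5 promoter windows shown all hold a match and come from genes of different patterns. CDC25A and CDC7 fell in both resistant lines, MCM3 and GINS2 rose in both, and CDT1 shows how strongly a GC-rich gene depends on the GC trend. Each window runs from 250 bases before to 50 after a RefSeq start on GRCh38.p14, 5′ to 3′ on the strand of the gene. CDC25A lies at chr3:48188368-48188667 (minus strand), CDC7 at chr1:91500862-91501161 (plus), MCM3 at chr6:52284693-52284992 (minus), GINS2 at chr16:85688905-85689204 (minus) and CDT1 at chr16:88803539-88803838 (plus). Capitals mark matches to TTTCCCGC, TTTCGCGC, TTTGCCGC or TTTGGCGC on either strand.
CDC25A: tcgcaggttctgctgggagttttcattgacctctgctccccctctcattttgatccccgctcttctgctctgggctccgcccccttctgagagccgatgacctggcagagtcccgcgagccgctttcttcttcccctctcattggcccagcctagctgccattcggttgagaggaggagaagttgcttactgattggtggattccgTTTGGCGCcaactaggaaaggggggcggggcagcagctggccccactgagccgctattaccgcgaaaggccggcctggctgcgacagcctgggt
CDC7: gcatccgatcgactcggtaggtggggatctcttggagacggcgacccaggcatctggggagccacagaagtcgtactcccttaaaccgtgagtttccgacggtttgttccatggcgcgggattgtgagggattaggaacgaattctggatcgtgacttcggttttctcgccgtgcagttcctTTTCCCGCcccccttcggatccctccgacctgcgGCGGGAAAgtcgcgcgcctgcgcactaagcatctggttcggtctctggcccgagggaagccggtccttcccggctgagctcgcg
MCM3: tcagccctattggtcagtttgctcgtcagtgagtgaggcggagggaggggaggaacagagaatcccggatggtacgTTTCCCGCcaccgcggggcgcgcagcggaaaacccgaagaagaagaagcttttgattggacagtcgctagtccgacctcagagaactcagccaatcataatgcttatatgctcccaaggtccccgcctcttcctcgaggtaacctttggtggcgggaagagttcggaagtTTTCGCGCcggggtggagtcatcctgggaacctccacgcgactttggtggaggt
GINS2: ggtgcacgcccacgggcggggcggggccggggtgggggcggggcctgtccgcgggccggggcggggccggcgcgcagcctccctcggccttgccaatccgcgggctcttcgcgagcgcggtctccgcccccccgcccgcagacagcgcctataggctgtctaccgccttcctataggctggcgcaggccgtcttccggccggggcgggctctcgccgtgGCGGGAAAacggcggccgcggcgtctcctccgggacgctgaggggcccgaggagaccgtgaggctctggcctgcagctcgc
CDT1: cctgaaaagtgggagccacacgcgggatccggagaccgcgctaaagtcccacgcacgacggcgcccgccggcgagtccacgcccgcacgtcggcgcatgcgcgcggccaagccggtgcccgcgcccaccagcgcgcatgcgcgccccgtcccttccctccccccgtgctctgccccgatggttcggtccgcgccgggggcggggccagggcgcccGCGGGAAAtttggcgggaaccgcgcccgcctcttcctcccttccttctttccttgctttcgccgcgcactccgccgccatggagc
A match was present in 22 of the 39 genes with a window, or 56.4%, against 3.99% of 27305 symbols. The 39 leave out CDK2, CCND1, CCND2, CCNE2, MCM4, MCM5 and GINS4. Of other genes that fell in both lines on both scales, GINS1 and POLA2 held a match and MCM10, RFC4 and RRM1 did not. CCND3 and TK1, which rose in both, held none. By window the share was 41.5% of 53 for these genes and 3.31% of all 35116, at a median GC of 66.0% and 58.7%. The CDC7 window, 1 of 2 for that gene, and the MCM3 window each held 2 matches, and the GINS2 and CDT1 windows had the highest GC of the 5, at 78.3% and 74.3%. A match is a string of letters and was not tested for binding.

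The 46 genes did not move as a block with resistance in either background. In the proficient line 12 rose, 15 fell and 19 did not pass (adjusted p under 0.05, edgeR quasi-likelihood test, Benjamini-Hochberg over all genes tested). These are 26.1% and 32.6% of the genes, near the 25.9% and 27.8% of all genes tested that rose and fell. Their median log2 change was -0.021, against -0.0017 over all genes. In the deficient line 16 rose, 18 fell and 12 did not pass, or 34.8% and 39.1%, against 28.9% and 27.0% of all genes. The median there was -0.075, against 0.026, with a range of -1.36 to 1.66. After removal of the GC trend, 12 rose and 19 fell in the proficient line, where 29.9% and 34.1% of all genes did. In the deficient line 22 rose and 19 fell, against 32.0% and 27.9% of all genes. Without the replicate block, no gene of the set was called in one direction on the deposited counts and in the other with the trend removed. The heatmap of all 46 genes by library shows that the deposited levels of CDT1, POLD1, MCM5, MCM2 and TK1 are highest in resistant deficient libraries.

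**Figure D1:**
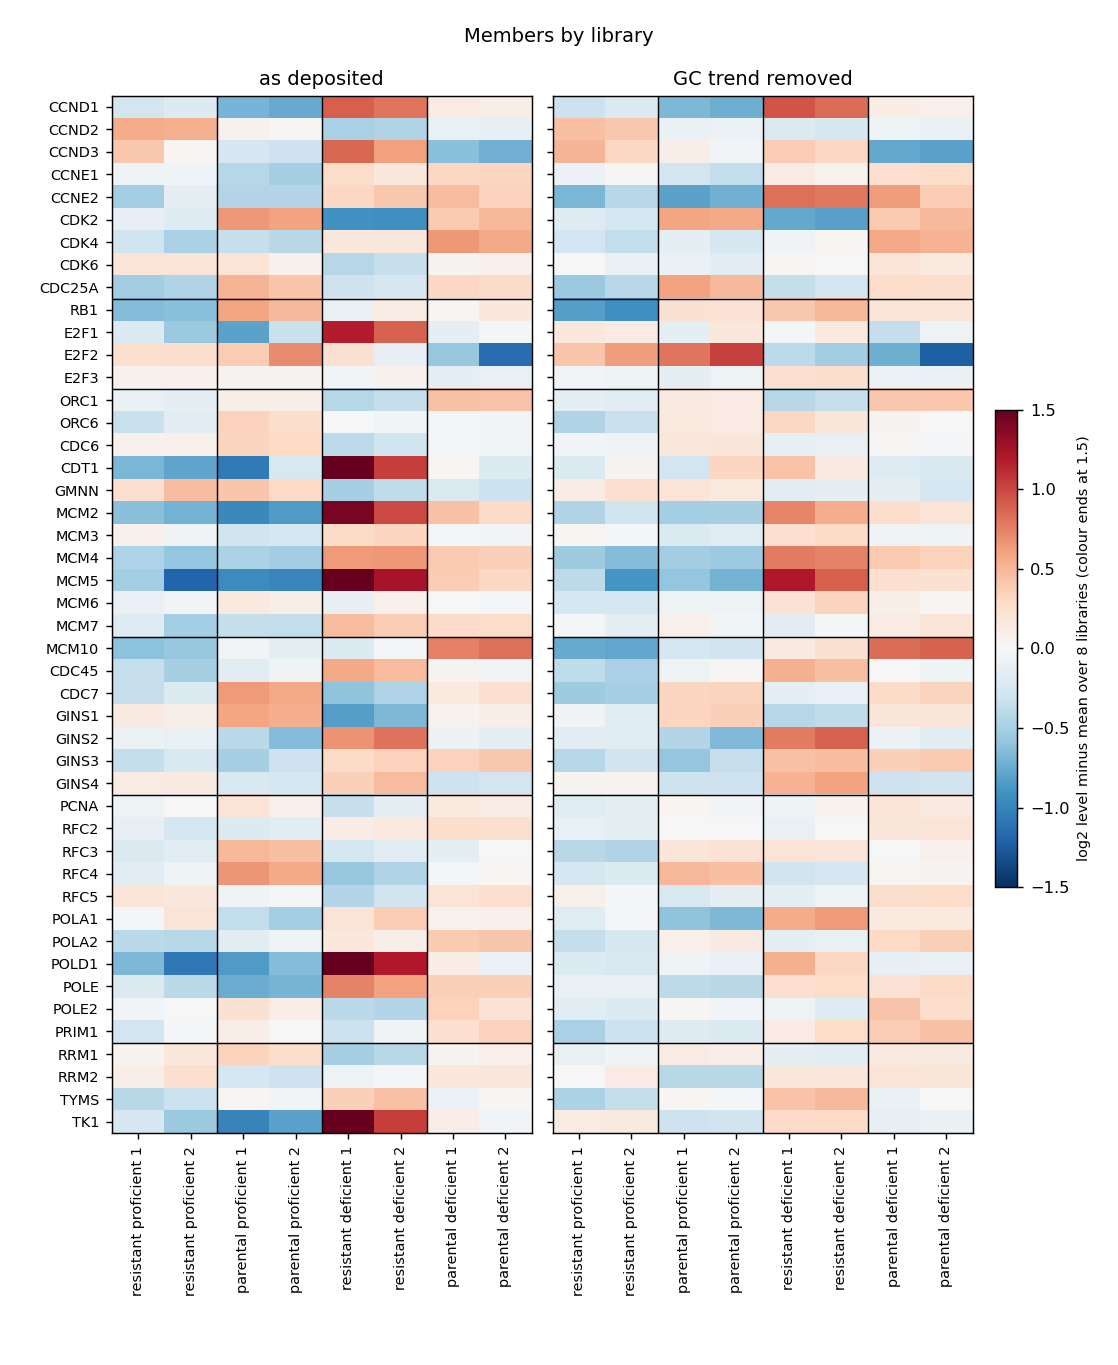
Each row is 1 of the 46 genes and each column 1 of 8 libraries, in the order resistant proficient, parental proficient, resistant deficient and parental deficient. Colour gives the log2 level (CPM) minus the mean of that gene over the 8 libraries, left as deposited and right with the GC trend removed. Lines separate gene roles and groups, and the deep red of CDT1, POLD1 and TK1 in resistant deficient libraries fades on the right.

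**Figure D2:**
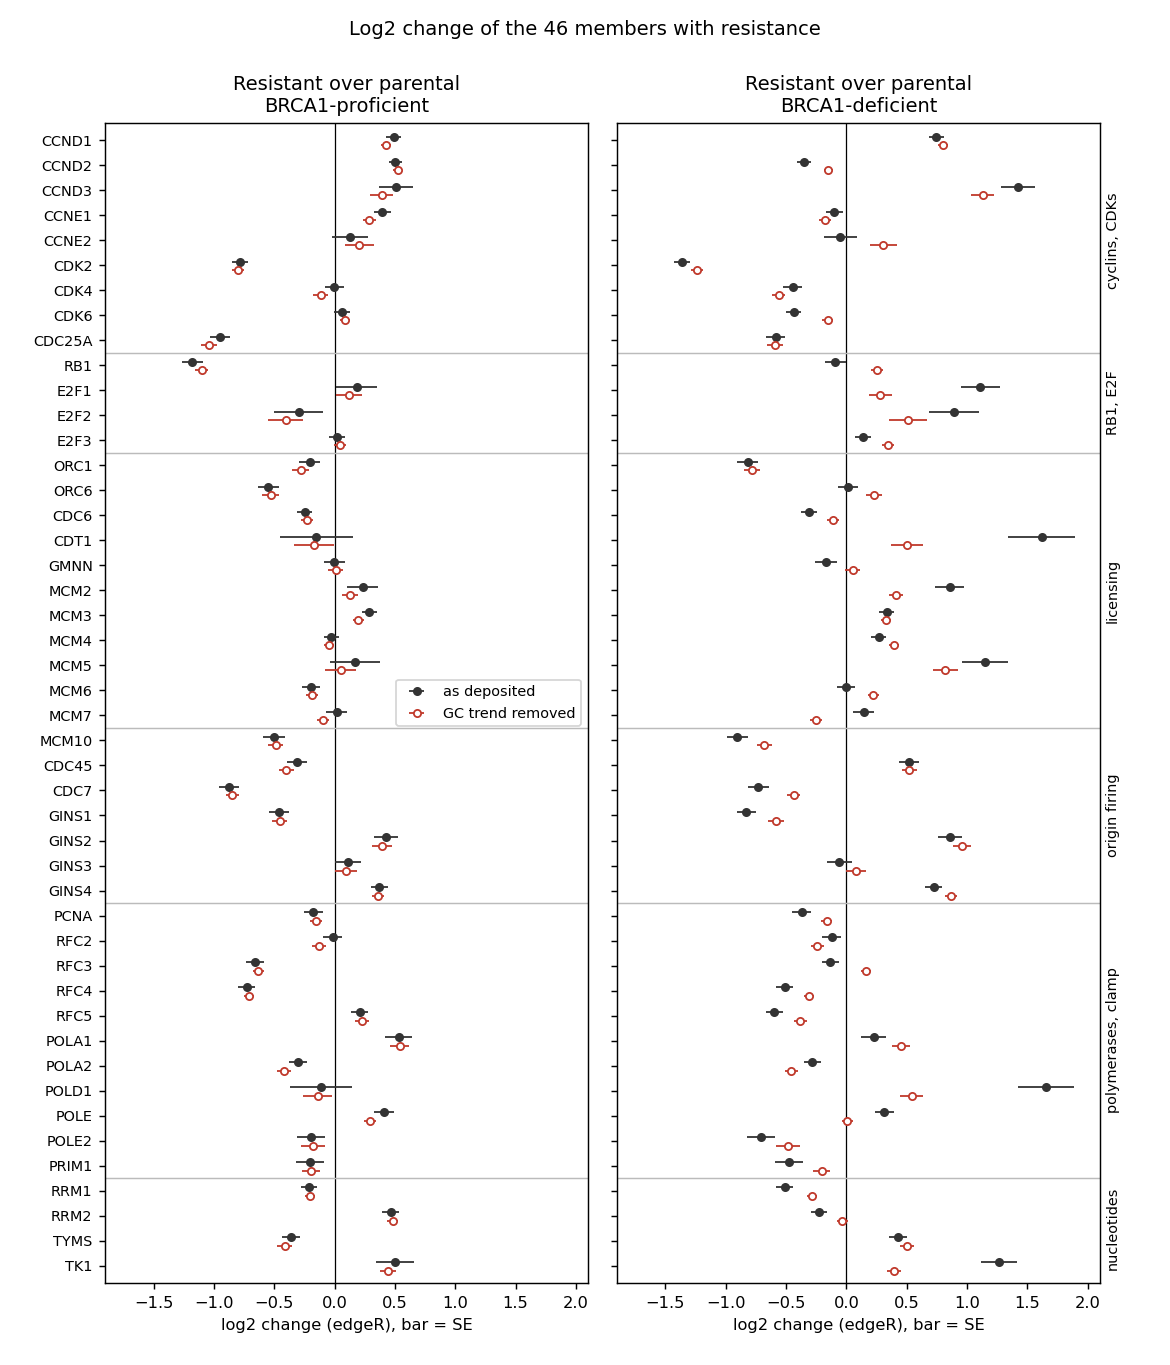
Log2 change of each gene between resistant and parental cells, left in proficient and right in deficient cells. Filled points are the edgeR fit of the deposited counts, open points the fit with the GC trend removed, and bars are the SE. CDK2 lies left of 0 in both panels on both scales, and RB1 does so by more than 1 log2 unit in the proficient panel.

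Among the cyclins and kinases, the D-type cyclin genes CCND1 and CCND3 rose and CDK2 and CDC25A fell in both resistant lines. CCND1, which encodes cyclin D1, the regulatory partner of CDK4 and CDK6, stood at 575 and 604 CPM in resistant proficient libraries, against 429 and 410.2 CPM in parental proficient libraries. In the deficient background it stood at 1297 and 1214 CPM in resistant and 758 and 739 CPM in parental libraries. Resistant libraries were above parental ones in both backgrounds, and the log2 changes were 0.49 ± 0.061 (SE, edgeR adjusted p = 4.78e-05) in proficient and 0.75 ± 0.061 (edgeR adjusted p = 3.22e-06) in deficient cells. CCND3, the gene of cyclin D3, had 28.5 and 21.9 CPM in resistant and 18.1 and 17.3 CPM in parental proficient libraries, a change of 0.51 ± 0.14 (edgeR adjusted p = 0.0106). This call was lost without resistant proficient replicate 1 (0.35, adjusted p = 0.0772) and without parental proficient replicate 2 (0.48, adjusted p = 0.0704). In deficient cells CCND3 had 38.9 and 32.9 CPM in resistant and 13.8 and 13.0 CPM in parental libraries, a change of 1.42 ± 0.14 (edgeR adjusted p = 1.39e-05), or 1.13 ± 0.094 with the GC trend removed. CCND2, the third D-type cyclin gene, went opposite ways. Its levels were 509.6 and 503 CPM in resistant and 363 and 352 CPM in parental proficient libraries (0.50 ± 0.056, edgeR adjusted p = 1.94e-05), and 248 and 254 CPM in resistant and 322 and 318 CPM in parental deficient libraries (-0.35 ± 0.056, edgeR adjusted p = 0.000338). After removal of the trend the change in deficient cells was -0.15 ± 0.038.

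Per kilobase of the longest coding transcript, cyclin D1 mRNA was the most abundant of the D-type cyclin mRNAs in all 4 groups. It stood at 137, 97.4, 291 and 174 CPM per kb in resistant proficient, parental proficient, resistant deficient and parental deficient cells. CCND2 came next at 78.1, 55.1, 38.7 and 49.4 CPM per kb, and CCND3 was lowest at 10.51, 7.39, 14.999 and 5.60. These are group means, with no test between genes.

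CDK2, the kinase partner of cyclins E and A, fell most of the set in deficient cells. It had 96.9 and 91.8 CPM in resistant and 165 and 160.1 CPM in parental proficient libraries, and 56.04 and 55.6 CPM in resistant and 138 and 149 CPM in parental deficient libraries. The groups did not overlap in either background. The log2 changes were -0.78 ± 0.067 (edgeR adjusted p = 2.65e-06) in proficient and -1.36 ± 0.068 (edgeR adjusted p = 1.17e-07) in deficient cells, and -0.80 and -1.23 with the GC trend removed. CDC25A, the phosphatase that removes inhibitory phosphates from CDK2, had 33.9 and 35.8 CPM in resistant and 69.6 and 65.0 CPM in parental proficient libraries (-0.95 ± 0.080, edgeR adjusted p = 2.33e-06). In deficient cells it had 39.3 and 40.8 CPM in resistant and 60.6 and 59.6 CPM in parental libraries (-0.58 ± 0.079, edgeR adjusted p = 0.000109). Both falls of CDC25A and both falls of CDK2 held in all alternatives run.

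The other entry genes were called in at most 1 background on the deposited counts. CCNE1, the gene of cyclin E1, stood at 79.0 and 79.7 CPM in resistant and 61.7 and 59.0 CPM in parental proficient libraries, a rise of 0.40 ± 0.070 (edgeR adjusted p = 0.000629). In deficient cells CCNE1 had 101 and 92.96 CPM in resistant and 103 and 104 CPM in parental libraries, which did not pass (-0.10 ± 0.069, edgeR adjusted p = 0.244), and passed as a fall with the trend removed (-0.18 ± 0.053, edgeR adjusted p = 0.00681, range 0.00681 to 0.499 across alternatives). CDK4, a kinase activated by D-type cyclins, had 60.1 and 52.9 CPM in resistant and 58.1 and 55.2 CPM in parental proficient libraries (-0.0024 ± 0.080, edgeR adjusted p = 0.987). In deficient cells CDK4 had 82.3 and 82.8 CPM in resistant and 115 and 109 CPM in parental libraries, a change of -0.45 ± 0.078 (edgeR adjusted p = 0.000606). CDK6, its close relative, had 270.0 and 271 CPM in resistant and 271 and 246 CPM in parental proficient libraries (0.065 ± 0.066, edgeR adjusted p = 0.436). It fell in deficient cells, to 175 and 186 CPM in resistant libraries, against 243 and 246 CPM in parental libraries (-0.44 ± 0.066, edgeR adjusted p = 0.000233), and by less with the trend removed (-0.16 ± 0.043). CCNE2, the gene of cyclin E2, passed in neither line on the deposited counts (0.13 in proficient and -0.049 in deficient cells), and as a rise in deficient cells with the trend removed (0.31, edgeR adjusted p = 0.0212, range 0.0212 to 0.980 across alternatives).

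**Figure D3:**
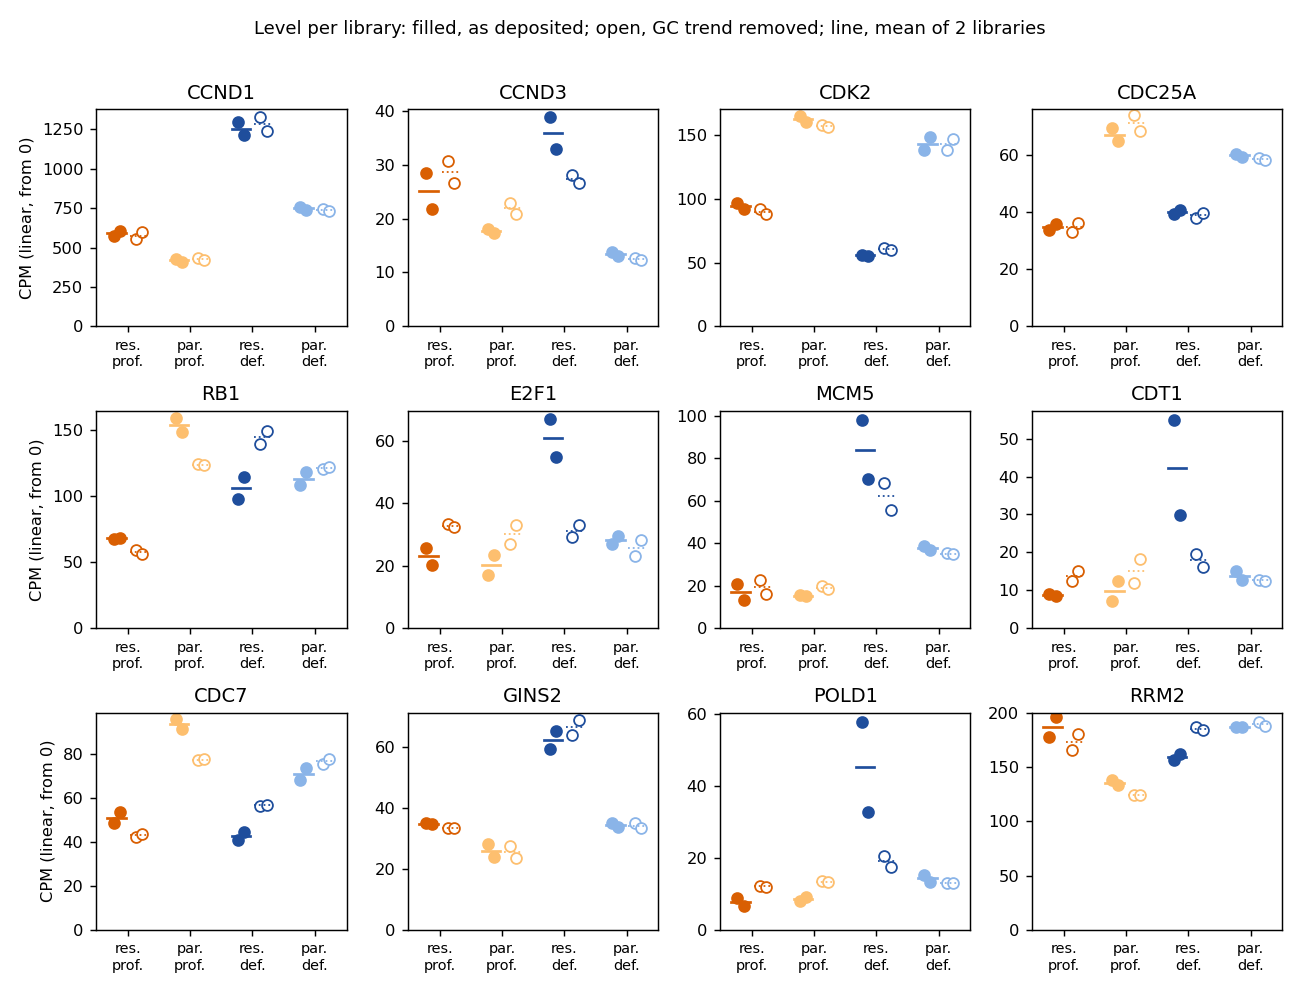
Level of 12 genes in CPM on a linear axis from 0, in resistant proficient, parental proficient, resistant deficient and parental deficient libraries. Filled points are the 2 libraries as deposited, open points the same with the GC trend removed, and lines the means. CDK2 and CDC25A are lower in resistant than in parental cells of both backgrounds, RB1 is low in resistant proficient cells, and the open points of CDT1 and POLD1 in resistant deficient cells lie far below the filled ones.

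RB1, which encodes the retinoblastoma protein that restrains E2F, fell in the resistant proficient line. It had 67.4 and 68.7 CPM in resistant and 159 and 148 CPM in parental proficient libraries, a change of -1.18 ± 0.087 (edgeR adjusted p = 8.31e-07), and -1.10 ± 0.051 with the GC trend removed. In deficient cells RB1 had 98.01 and 115 CPM in resistant and 108 and 118 CPM in parental libraries, which overlapped (-0.090 ± 0.085, edgeR adjusted p = 0.393). With the trend removed RB1 was 139.7 and 149.7 CPM in resistant and 121 and 122 CPM in parental deficient libraries and passed as a rise (0.25, edgeR adjusted p = 0.000176, range 0.000176 to 0.941 across alternatives). RB1 is AT-rich, at 37.3% GC. It lies on chromosome 13, as does RFC3, which also fell in the resistant proficient line. The part of this location in the 2 falls was not tested.

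E2F1, the activating E2F gene most tied to S-phase entry, stood at 25.7 and 20.1 CPM in resistant and 16.9 and 23.4 CPM in parental proficient libraries, which overlapped (0.18 ± 0.17, edgeR adjusted p = 0.386). In deficient cells it stood at 67.0 and 54.7 CPM in resistant and 26.9 and 29.4 CPM in parental libraries, a rise of 1.11 ± 0.16 (edgeR adjusted p = 0.000188). At 62.5% GC, E2F1 was sensitive to the trend: with it removed the levels were 29.3 and 32.9 CPM in resistant and 23.1 and 28.1 CPM in parental deficient libraries, and the rise was 0.28 ± 0.095. E2F2, a second activating E2F gene, had 12.3 and 12.4 CPM in resistant and 13.5 and 16.8 CPM in parental proficient libraries (-0.30 ± 0.20, edgeR adjusted p = 0.236), which passed as a fall with the trend removed (-0.40, edgeR adjusted p = 0.0205, range 0.0199 to 0.714 across alternatives). In deficient cells it had 12.1 and 9.48 CPM in resistant and 6.97 and 4.67 CPM in parental libraries, a rise of 0.89 ± 0.21 (edgeR adjusted p = 0.00383) that was 0.51 with the trend removed and was lost without parental deficient replicate 2 (0.60, adjusted p = 0.0588). E2F3 passed in neither line on the deposited counts (0.022 in proficient and 0.14 in deficient cells), and as a rise in deficient cells with the trend removed (0.34, edgeR adjusted p = 4.51e-06, range 4.51e-06 to 0.583 across alternatives).

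Of the 11 licensing genes, 1 rose and 3 fell in the resistant proficient line, and 5 rose and 2 fell in the resistant deficient line, where 4 of the 5 rises were in the MCM ring. Over all genes tested, 25.9% rose and 27.8% fell in proficient cells, and 28.9% and 27.0% in deficient cells. With the GC trend removed 1 of the 11 rose and 4 fell in proficient cells, against 29.9% and 34.1% of all genes. On that scale 7 rose and 2 fell in deficient cells, against 32.0% and 27.9%. MCM5, a subunit of the MCM2-7 helicase, had 20.8 and 13.0 CPM in resistant and 15.4 and 14.9 CPM in parental proficient libraries, which overlapped (0.17 ± 0.21, edgeR adjusted p = 0.522). In deficient cells it had 97.9 and 70.0 CPM in resistant and 38.8 and 36.9 CPM in parental libraries, a rise of 1.15 ± 0.19 (edgeR adjusted p = 0.000405), and of 0.82 ± 0.10 with the GC trend removed. MCM2, another ring subunit, had 55.8 and 52.9 CPM in resistant and 44.4 and 48.1 CPM in parental proficient libraries (0.23 ± 0.13, edgeR adjusted p = 0.146). In deficient cells MCM2 had 233 and 172 CPM in resistant and 118 and 106 CPM in parental libraries, a rise of 0.86 ± 0.12 (edgeR adjusted p = 0.000148), or 0.41 with the trend removed. MCM3 rose in both lines, by 0.29 in proficient and 0.33 in deficient cells. MCM4 rose in deficient cells (0.27 ± 0.061, edgeR adjusted p = 0.00350), a call lost without parental deficient replicate 2 (0.22, adjusted p = 0.0592). MCM6 fell slightly in proficient cells (-0.20 ± 0.076, edgeR adjusted p = 0.0464), a call that held in 4 of 17 alternatives (range 0.00159 to 0.364 across alternatives) and was lost without any 1 of the 8 libraries (-0.23 to -0.11, adjusted p = 0.0524 to 0.364). In deficient cells MCM6 had a value of -0.0038 and passed as a rise with the trend removed (0.22, edgeR adjusted p = 0.000344, range 0.000344 to 0.9979 across alternatives). MCM7 passed in neither on the deposited counts (0.018 and 0.14), and in deficient cells as a fall with the trend removed (-0.25, edgeR adjusted p = 0.000222, range 0.000187 to 0.590 across alternatives).

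CDT1, which loads the ring onto origins with CDC6 and is held in check by geminin, had the second largest rise of the set in deficient cells. Its levels were 54.9 and 29.8 CPM in resistant and 14.9 and 12.6 CPM in parental deficient libraries, so that the 2 resistant libraries were far apart but both above the parental ones (1.62 ± 0.28, edgeR adjusted p = 0.000592). With the GC trend removed the levels were 19.7 and 16.0 CPM in resistant and 12.7 and 12.5 CPM in parental deficient libraries, and the rise was 0.50 ± 0.13. In proficient cells CDT1 had 9.05 and 8.45 CPM in resistant and 7.01 and 12.3 CPM in parental libraries, which overlapped (-0.15 ± 0.30, edgeR adjusted p = 0.699). CDT1 has 64.9% GC. ORC1, the largest subunit of the origin recognition complex, moved the other way. It had 25.5 and 26.8 CPM in resistant and 46.3 and 45.9 CPM in parental deficient libraries, a change of -0.82 ± 0.086 (edgeR adjusted p = 1.87e-05), and 32.1 and 31.0 CPM in resistant and 36.4 and 36.4 CPM in parental proficient libraries (-0.21 ± 0.086, edgeR adjusted p = 0.0635). The proficient value passed as a fall with the trend removed (-0.28, edgeR adjusted p = 0.00169, range 0.00169 to 0.296 across alternatives). ORC6 fell in the proficient line (-0.55 ± 0.086, edgeR adjusted p = 0.000257) with 0.015 as its value in the deficient line, which passed as a rise with the trend removed (0.23, edgeR adjusted p = 0.00526, range 0.00526 to 1 across alternatives). CDC6, the loading ATPase, fell in both lines, with changes of -0.25 ± 0.065 (edgeR adjusted p = 0.00705) with BRCA1 and -0.31 ± 0.065 (edgeR adjusted p = 0.00199) without it. The proficient fall of CDC6 was lost without resistant proficient replicate 1 (-0.19, adjusted p = 0.0744) and without parental proficient replicate 1 (-0.20, adjusted p = 0.0971), and the deficient fall with the trend removed (-0.11, adjusted p = 0.0550, range 0.000353 to 0.0646 across alternatives). GMNN, the geminin gene, passed in neither line (-0.0035 and -0.17).

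The 6 ring subunits act in equal numbers, but their mRNA levels per kilobase were unequal in all groups. MCM2, MCM3, MCM4, MCM5, MCM6 and MCM7 stood at 15.01, 62.8, 46.2, 4.79, 36.9 and 74.1 CPM per kb in resistant proficient cells and 12.8, 51.4, 47.1, 4.29, 42.3 and 73.2 in parental proficient cells. In resistant deficient cells they stood at 55.9, 77.3, 104, 23.8, 38.4 and 126 CPM per kb, and in parental deficient cells at 30.9, 61.3, 86.2, 10.7, 38.5 and 114. MCM5 was the lowest and MCM7 the highest in each group on this scale. With the GC trend removed MCM5 was the lowest in each group, at 5.47, 5.37, 17.5 and 9.92 CPM per kb in the same order of groups. This correction takes out only differences between libraries. A GC effect shared by all libraries stays in these levels, so it cannot show whether GC content sets the order of genes. MCM7 was then highest in all groups except resistant deficient cells, where MCM4 had 112 and MCM7 88.3 CPM per kb.

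Of the 7 origin firing genes, CDC7, MCM10 and GINS1 fell and GINS2 and GINS4 rose in both resistant lines, with 2 rising and 4 falling in proficient cells and 3 and 3 in deficient cells. The shares of all genes that rose and fell were 25.9% and 27.8% in proficient and 28.9% and 27.0% in deficient cells. CDC7, the kinase that phosphorylates the MCM ring to fire origins, had 48.5 and 53.6 CPM in resistant and 96.0 and 91.2 CPM in parental proficient libraries (-0.88 ± 0.085, edgeR adjusted p = 7.07e-06). In deficient cells it had 40.7 and 44.6 CPM in resistant and 67.9 and 73.6 CPM in parental libraries (-0.73 ± 0.085, edgeR adjusted p = 4.06e-05), a change of -0.44 with the GC trend removed. MCM10, which helps the helicase start unwinding, had 31.2 and 32.2 CPM in resistant and 46.5 and 43.3 CPM in parental proficient libraries (-0.50 ± 0.090, edgeR adjusted p = 0.000674). In deficient cells MCM10 had 41.3 and 46.9 CPM in resistant and 80.5 and 84.7 CPM in parental libraries (-0.90 ± 0.087, edgeR adjusted p = 1.03e-05). GINS1, a subunit of the GINS complex that joins the helicase, had 56.3 and 54.4 CPM in resistant and 77.5 and 74.9 CPM in parental proficient libraries (-0.46 ± 0.080, edgeR adjusted p = 0.000554). In deficient cells GINS1 had 28.9 and 32.2 CPM in resistant and 53.5 and 55.01 CPM in parental libraries (-0.83 ± 0.082, edgeR adjusted p = 1.23e-05). The parental libraries of CDC7, MCM10 and GINS1 were all above the resistant ones of the same background.

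GINS2 and GINS4, which encode subunits of the same complex as GINS1, rose in both lines. GINS2 had 35.1 and 34.7 CPM in resistant and 28.2 and 23.8 CPM in parental proficient libraries (0.43 ± 0.10, edgeR adjusted p = 0.00456), and 59.5 and 65.5 CPM in resistant and 35.2 and 33.9 CPM in parental deficient libraries (0.86 ± 0.10, edgeR adjusted p = 3.79e-05). The proficient rise of GINS2 was lost without parental proficient replicate 2 (0.30, adjusted p = 0.0631). GINS4 rose by 0.37 ± 0.070 in proficient and 0.72 ± 0.069 in deficient cells, and GINS3 passed in neither (0.11 and -0.060). The 4 subunits of 1 complex thus held 1 gene that fell, 2 that rose and 1 that did not pass, in both backgrounds and on both scales. CDC45, the helicase cofactor, went opposite ways, with -0.31 ± 0.085 in proficient and 0.52 ± 0.083 in deficient cells (edgeR adjusted p = 0.00908 and 0.000339). Its fall in proficient cells was lost without resistant proficient replicate 2 (-0.20, adjusted p = 0.120) and without parental proficient replicate 2 (-0.26, adjusted p = 0.0787).

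Of the 11 polymerase, primase and clamp genes, 3 rose and 3 fell in proficient cells, and 2 rose and 6 fell in deficient cells. Among all genes 25.9% rose and 27.8% fell in proficient cells, and 28.9% rose and 27.0% fell in deficient cells. POLD1, the catalytic subunit of the lagging-strand polymerase delta, had the largest rise of the set in deficient cells, with 57.8 and 32.7 CPM in resistant and 15.3 and 13.3 CPM in parental libraries (1.66 ± 0.23, edgeR adjusted p = 0.000142). At 65.0% GC it was the most GC-rich of the 46, and with the trend removed it had 20.6 and 17.6 CPM in resistant and 13.1 and 13.1 CPM in parental deficient libraries, a rise of 0.54 ± 0.10. In proficient cells POLD1 had 8.88 and 6.74 CPM in resistant and 7.90 and 9.02 CPM in parental libraries (-0.11 ± 0.26, edgeR adjusted p = 0.737). POLE, the catalytic subunit of the leading-strand polymerase epsilon, had 81.3 and 71.3 CPM in resistant and 56.3 and 58.5 CPM in parental proficient libraries (0.41 ± 0.082, edgeR adjusted p = 0.00134). In deficient cells POLE had 158 and 143 CPM in resistant and 121 and 121 CPM in parental libraries (0.31 ± 0.079, edgeR adjusted p = 0.00589). That call was lost with the trend removed (0.0073, adjusted p = 0.904, range 0.00109 to 0.906 across alternatives) and without resistant deficient replicate 1 (0.21, adjusted p = 0.0606) and without parental deficient replicate 2 (0.28, adjusted p = 0.0572). POLE2, the second subunit of polymerase epsilon, had 13.2 and 12.9 CPM in resistant and 22.2 and 20.3 CPM in parental deficient libraries, a change of -0.70 ± 0.12 (edgeR adjusted p = 0.000426), and 17.1 and 17.4 CPM in resistant and 20.6 and 18.8 CPM in parental proficient libraries (-0.19 ± 0.12, edgeR adjusted p = 0.188).

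Of 4 genes of the clamp loader, which places the sliding clamp PCNA on DNA, RFC4 fell in both lines. RFC4 had 141 and 150.0 CPM in resistant and 249.3 and 232 CPM in parental proficient libraries (-0.73 ± 0.071, edgeR adjusted p = 6.63e-06), and fell in deficient cells by 0.51 on the log2 scale. RFC3 had 128 and 134 CPM in resistant and 211 and 204 CPM in parental proficient libraries (-0.66 ± 0.071, edgeR adjusted p = 1.52e-05). In deficient cells RFC3 had 125 and 134 CPM in resistant and 135 and 149 CPM in parental libraries (-0.13 ± 0.071, edgeR adjusted p = 0.137), which passed as a rise with the trend removed (0.16, edgeR adjusted p = 0.00358, range 0.00358 to 0.437 across alternatives). RFC3 was thus called in opposite directions in the 2 lines on that scale. RFC5 fell in deficient cells (-0.60 ± 0.073, edgeR adjusted p = 5.70e-05) and rose in proficient cells (0.21 ± 0.073, edgeR adjusted p = 0.0334), a rise lost without parental deficient replicate 1 (0.20, adjusted p = 0.0592), without resistant proficient replicate 1 (0.24, adjusted p = 0.0579), without parental proficient replicate 1 (0.22, adjusted p = 0.105) and without parental proficient replicate 2 (0.22, adjusted p = 0.0982). RFC2 passed in neither line on the deposited counts (-0.015 and -0.12), and as a fall in deficient cells with the trend removed (-0.24, edgeR adjusted p = 0.00100, range 0.00100 to 0.402 across alternatives). PCNA fell in deficient cells (-0.37 ± 0.079, edgeR adjusted p = 0.00220); its proficient value was -0.18 ± 0.079 (edgeR adjusted p = 0.0775) and passed as a fall with the trend removed (-0.16, edgeR adjusted p = 0.00840, range 0.00840 to 0.550 across alternatives).

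Polymerase alpha and primase lay the primers for both strands. POLA1, the catalytic subunit, had 33.6 and 39.3 CPM in resistant and 26.5 and 23.99 CPM in parental proficient libraries, the largest rise of the set there (0.53 ± 0.11, edgeR adjusted p = 0.00176). In deficient cells POLA1 had 39.3 and 44.4 CPM in resistant and 35.5 and 36.2 CPM in parental libraries (0.23 ± 0.11, edgeR adjusted p = 0.0945), which passed with the trend removed (0.45, edgeR adjusted p = 2.07e-05, range 1.73e-05 to 0.499 across alternatives). POLA2, its accessory subunit, fell in both lines (-0.30 ± 0.075 in proficient and -0.28 ± 0.073 in deficient cells). The proficient fall of POLA2 was lost without parental proficient replicate 2 (-0.25, adjusted p = 0.0563). PRIM1, the primase subunit that makes the RNA primer, fell in deficient cells (-0.47 ± 0.12, edgeR adjusted p = 0.00476); its proficient value was -0.20 ± 0.12 (edgeR adjusted p = 0.169) and passed as a fall with the trend removed (-0.19, edgeR adjusted p = 0.0268, range 0.0198 to 0.920 across alternatives).

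All 4 genes of deoxynucleotide supply passed in both lines on the deposited counts, with 2 rising and 2 falling in each. Across all genes tested the shares rising and falling were 25.9% and 27.8% in proficient cells. They were 28.9% and 27.0% in deficient cells. RRM2, the S-phase subunit of ribonucleotide reductase, had 178 and 197 CPM in resistant and 138 and 133 CPM in parental proficient libraries, a rise of 0.46 ± 0.068 (edgeR adjusted p = 0.000152). In deficient cells RRM2 had 157 and 162 CPM in resistant and 187 and 187 CPM in parental libraries (-0.23 ± 0.067, edgeR adjusted p = 0.0134), a fall lost with the trend removed (-0.033, adjusted p = 0.554, range 0.00360 to 0.561 across alternatives) and without parental deficient replicate 1 (-0.23, adjusted p = 0.0625). RRM1, the large subunit, fell in both lines (-0.21 ± 0.068 in proficient and -0.51 ± 0.068 in deficient cells). The proficient fall of RRM1 was lost with DESeq2 (adjusted p = 0.0614), with library totals alone (edgeR adjusted p = 0.0704), without parental deficient replicate 2 (-0.17, adjusted p = 0.0869), without resistant proficient replicate 1 (-0.10, adjusted p = 0.306) and without parental proficient replicate 1 (-0.14, adjusted p = 0.254). TK1, the thymidine kinase gene, had 37.3 and 30.2 CPM in resistant and 22.2 and 25.6 CPM in parental proficient libraries (0.50 ± 0.16, edgeR adjusted p = 0.0203), a rise lost without resistant proficient replicate 1 (0.39, adjusted p = 0.118) and without parental proficient replicate 1 (0.43, adjusted p = 0.108). In deficient cells TK1 had 127 and 91.3 CPM in resistant and 47.7 and 43.2 CPM in parental libraries (1.27 ± 0.15, edgeR adjusted p = 4.49e-05), or 0.40 ± 0.055 with the trend removed. TYMS, the thymidylate synthase gene, fell in the proficient line (-0.36 ± 0.076, edgeR adjusted p = 0.00182) but rose in the deficient line (0.43 ± 0.074, edgeR adjusted p = 0.000586). TYMS overlaps ENOSF1, and the strand setting of the counts is not known.

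Both resistance comparisons use different libraries, so their calls can be set side by side. On the deposited counts 7 genes rose in both lines, 15.2% of the 46, against 10.2% of all genes tested. They were 58.3% of the 12 that rose in proficient and 43.8% of the 16 that rose in deficient cells, where the shares over all genes were 39.2% and 35.1%. A further 9 genes fell in both lines, 19.6% of the 46, against 13.2% of all genes tested. They were 60.0% of the 15 that fell in proficient and 50% of the 18 that fell in deficient cells, where the shares over all genes were 47.4% and 48.9%. CDC45 and TYMS rose in deficient and fell in proficient cells, and CCND2, RFC5 and RRM2 did the opposite. After removal of the GC trend 7 rose in both and 11 fell in both, 15.2% and 23.9% of the 46, against 13.3% and 14.5% of all genes, and 10 went opposite ways. How many of all genes went opposite ways was not counted on either scale, so these opposite calls do not set the 46 genes apart. The genes that rose in both lines on both scales were CCND1, CCND3, MCM3, GINS2, GINS4 and TK1. Those that fell in both on both scales were CDK2, CDC25A, MCM10, CDC7, GINS1, RFC4, POLA2 and RRM1. Among the genes that fell are the kinases CDK2 and CDC7 that fire origins and CDC25A, which activates CDK2. GINS2 and GINS4, also origin firing genes, are among those that rose, and firing itself was not measured.

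**Figure D4:**
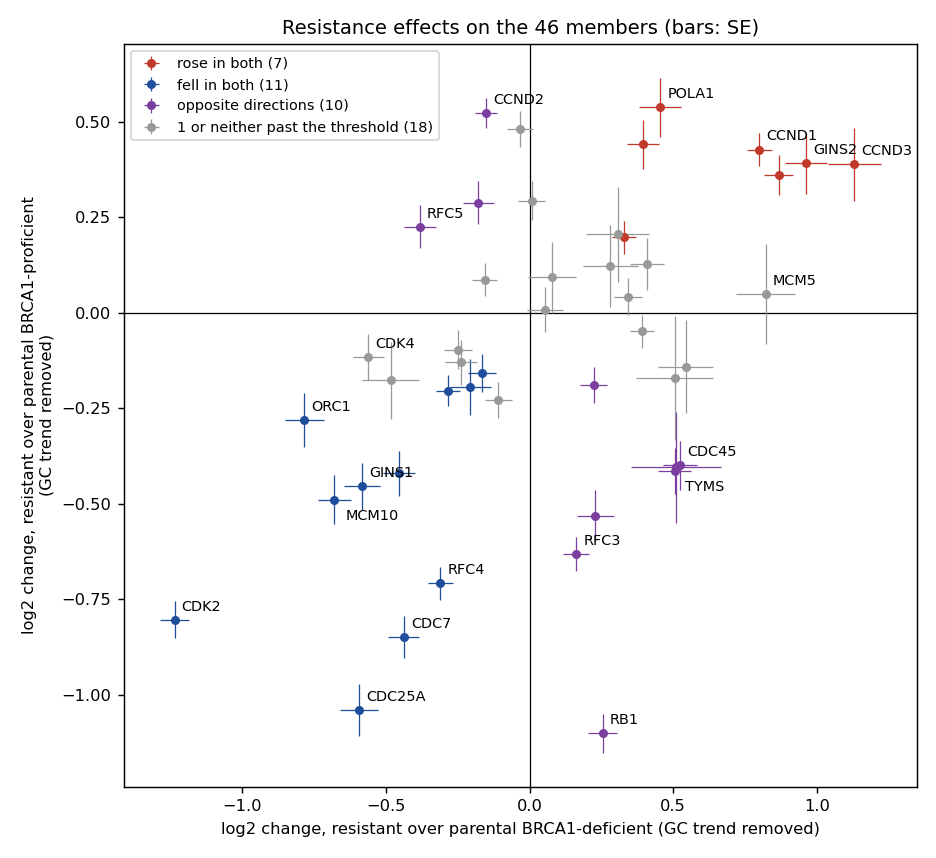
Log2 change of each of the 46 genes with resistance in deficient cells (x axis) and in proficient cells (y axis), both with the GC trend removed and with SE bars. Colours give the joint calls, with 7 genes that rose in both, 11 that fell in both, 10 that went opposite ways and 18 called in 1 or neither. The share of all genes that went opposite ways was not counted. CDK2 lies farthest left, CDC25A lowest among genes that fell in both, and RB1 lowest of all, just right of the vertical line.

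How far GC content moved with these changes was measured directly. The 46 transcripts ran from 36.9% to 65.0% GC with a median of 48.2%, close to the 48.5% of all genes tested. In deficient cells the change with resistance followed GC content across the 46 genes (Spearman rho 0.60, against 0.46 over 15378 genes, which share the same libraries and are not replicates). Of the 10 genes above 55% GC, 9 rose and 0 fell, with a median of 1.13, and of the other 36, 7 rose and 18 fell, with a median of -0.20. With the trend removed 8 of the 10 rose and 1 fell, with a median of 0.46, and 14 of the 36 rose and 18 fell. The correlation with GC was then 0.31 for the 46 genes and -0.00088 over all genes. How many of the 4556 genes tested above 55% GC rose was not counted, so these counts do not set the 46 genes apart. The limit of 55% was set after the values were seen. In proficient cells the correlation on the deposited counts was 0.32 for these genes and 0.082 over all genes. The 2 resistant deficient libraries also differed between themselves in the GC-rich genes: CDT1, POLD1 and TK1 were higher in replicate 1, which had the steeper trend. Without resistant deficient replicate 1 the rises in deficient cells were 1.09 for CDT1, 1.16 for POLD1 and 0.98 for TK1 (edgeR adjusted p = 0.000806, 3.95e-05 and 1.34e-05).

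**Figure D5:**
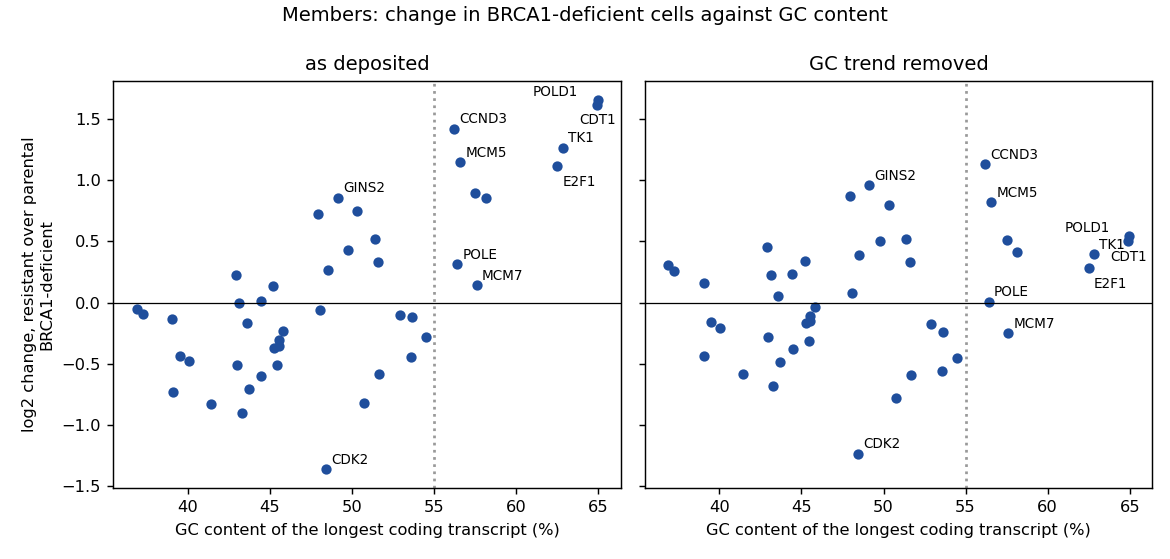
Log2 change of each gene between resistant and parental deficient cells against the GC content of its longest coding transcript, left as deposited and right with the GC trend removed. The dotted line marks 55% GC. POLD1, CDT1, TK1 and E2F1 at the right drop to 0.54 or less, while CCND3 stays above 1 and GINS2 and CDK2, near the middle of the GC range, stand at 0.86 and -1.36 on the left and 0.96 and -1.23 on the right.

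The comparison of the parental lines asked how these genes differ between cells with restored BRCA1 and cells that lack it. Parental proficient cells were at passage 10 and parental deficient cells at passage 29, so BRCA1 state and passage cannot be told apart here. In parental proficient cells 14 genes were higher and 22 lower, or 30.4% and 47.8%, against 32.3% and 30.1% of all genes, and the median log2 difference was -0.25. After removal of the trend 9 were higher and 25 lower, against 33.5% and 31.0% of all genes, with a median of -0.14. The count of higher genes was also 9 without parental deficient replicate 1 and 8 without parental deficient replicate 2 or parental proficient replicate 1. On the deposited counts the ring genes MCM5 and MCM2 had the lowest differences, and with the trend removed CCNE2 and MCM10 did. MCM5 had 15.4 and 14.9 CPM in parental proficient and 38.8 and 36.9 CPM in parental deficient libraries (-1.32 ± 0.20, edgeR adjusted p = 0.000159, or -0.89 with the trend removed). MCM2 had 44.4 and 48.1 CPM in parental proficient and 118 and 106 CPM in parental deficient libraries (-1.27 ± 0.13, edgeR adjusted p = 6.57e-06, or -0.74). MCM4 was lower by a similar amount on both scales (-0.87 and -0.91). CCNE2 was lower at -0.85 ± 0.14 (edgeR adjusted p = 0.000355), or -1.27 ± 0.12 with the trend removed.

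Among the polymerase, firing and entry genes, POLE had 56.3 and 58.5 CPM in parental proficient and 121 and 121 CPM in parental deficient libraries (-1.08 ± 0.081, edgeR adjusted p = 8.47e-07, or -0.65 with the trend removed). CDK4 had 58.1 and 55.2 CPM in parental proficient and 115 and 109 CPM in parental deficient libraries (-0.99 ± 0.079, edgeR adjusted p = 1.33e-06, or -0.75). MCM10 had 46.5 and 43.3 CPM in parental proficient and 80.5 and 84.7 CPM in parental deficient libraries (-0.88 ± 0.088, edgeR adjusted p = 6.91e-06, or -1.14). The groups did not overlap for any of these. CCND1 and CCNE1 were also lower (-0.84 and -0.78, or -0.79 and -0.59 with the trend removed). TK1 was lower by much less once the trend was removed (-0.92 ± 0.16, edgeR adjusted p = 0.000359, or -0.19 ± 0.062). CDK6 did not pass (0.082 ± 0.066, edgeR adjusted p = 0.299) and passed as lower with the trend removed (-0.30, edgeR adjusted p = 4.02e-06, range 1.11e-06 to 0.963 across alternatives). E2F1 was lower at -0.48 ± 0.17 (edgeR adjusted p = 0.0276), but gave 0.24 with the trend removed (adjusted p = 0.0527, range 6.81e-05 to 0.197 across alternatives), and its call was lost without parental deficient replicate 1 (-0.54, adjusted p = 0.0521), without parental deficient replicate 2 (-0.45, adjusted p = 0.100) and without parental proficient replicate 1 (-0.29, adjusted p = 0.197). With the trend removed and the replicate block added, E2F1 passed as higher (0.23, adjusted p = 0.0246). Without parental proficient replicate 2, on the deposited counts, it was -0.73.

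In the other direction, E2F2 had 13.5 and 16.8 CPM in parental proficient and 6.97 and 4.67 CPM in parental deficient libraries, the largest rise of the set (1.38 ± 0.21, edgeR adjusted p = 0.000151, or 1.88 with the trend removed). GMNN had 99.4 and 91.4 CPM in parental proficient and 63.8 and 59.7 CPM in parental deficient libraries (0.63 ± 0.089, edgeR adjusted p = 9.61e-05, or 0.38). RFC4 was higher on both scales (0.61 ± 0.070, edgeR adjusted p = 2.13e-05, or 0.44). RFC3, GINS1 and RB1 were higher by 0.55, 0.49 and 0.44 (edgeR adjusted p = 4.74e-05, 0.000274 and 0.000873). With the trend removed these shrank to 0.16, 0.16 and 0.029, and RB1 no longer passed (adjusted p = 0.619, range 3.07e-06 to 0.629 across alternatives).

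Whether resistance acted differently in proficient and in deficient cells was tested as the difference of the 2 effects, proficient minus deficient. The difference was positive for 12 genes and negative for 18, or 26.1% and 39.1%, against 21.4% and 25.3% of all genes. It was negative for 10 genes without parental deficient replicate 2 or without resistant proficient replicate 2. With the trend removed it was positive for 9 and negative for 20, against 24.3% and 31.9%. RB1 differed by -1.09 ± 0.12 (edgeR adjusted p = 3.57e-05, or -1.36 ± 0.071 with the trend removed). On the deposited counts RB1 passed in proficient cells and not in deficient cells. The difference was -1.77 ± 0.34 (edgeR adjusted p = 0.00163, or -0.68 ± 0.16 with the trend removed) for POLD1. It was -1.77 ± 0.41 (edgeR adjusted p = 0.00474, or -0.68 ± 0.21 with the trend removed) for CDT1. E2F2 differed by -1.19 ± 0.29 (edgeR adjusted p = 0.00617, or -0.91 ± 0.21 with the trend removed). MCM5 differed by -0.98 ± 0.28 (edgeR adjusted p = 0.0140, or -0.77 ± 0.17 with the trend removed), a call lost without parental deficient replicate 2 (-0.87, adjusted p = 0.0595), without resistant proficient replicate 2 (-0.62, adjusted p = 0.0557) and without parental proficient replicate 1 (-0.90, adjusted p = 0.0543), and its value was -0.65 without resistant deficient replicate 1. In the positive direction CCND2 and RFC5 differed by 0.85 and 0.80 (edgeR adjusted p = 9.71e-06 and 0.000102), or 0.67 and 0.61 with the trend removed.

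Genes that act beside these were read from further lists, whose counts stand against 25.9% of all genes that rose and 27.8% that fell in proficient cells, and 28.9% and 27.0% in deficient cells. Of 9 other pocket protein, E2F and DP genes, 1 rose and 7 fell in resistant proficient cells and 3 rose and 3 fell in resistant deficient cells. TFDP1, which encodes DP1, the partner with which E2F factors bind DNA, had 5.69 and 6.88 CPM in resistant deficient libraries, against 135 and 129 CPM in parental deficient libraries (-4.38 ± 0.11, edgeR adjusted p = 6.18e-10, or -4.20 with the GC trend removed). In proficient cells TFDP1 had 42.4 and 39.3 CPM in resistant and 65.6 and 71.1 CPM in parental libraries (-0.74 ± 0.091, edgeR adjusted p = 4.18e-05). E2F7, an E2F that represses, fell in both lines (-0.51 in proficient and -1.17 in deficient cells), and E2F5 fell in proficient cells (-1.36 ± 0.12, edgeR adjusted p = 3.31e-06).

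Of 7 CDK inhibitor genes, 3 rose and 2 fell in resistant proficient cells and 2 rose and 2 fell in resistant deficient cells. With the GC trend removed 3 rose and 2 fell in proficient cells, where 29.9% and 34.1% of all genes did. In deficient cells 1 then rose and 3 fell, where 32.0% and 27.9% did. CDKN1A, which encodes p21, a p53 target that blocks CDK2, had 26.8 and 22.1 CPM in resistant and 8.14 and 7.47 CPM in parental proficient libraries (1.65 ± 0.16, edgeR adjusted p = 6.81e-06). In deficient cells CDKN1A had 3.20 and 3.04 CPM in resistant and 2.50 and 2.12 CPM in parental libraries (0.43 ± 0.19, edgeR adjusted p = 0.0709). CDKN2B, which encodes the CDK4 and CDK6 inhibitor p15, had 95.3 and 96.0 CPM in resistant and 39.6 and 37.3 CPM in parental proficient libraries (1.31 ± 0.085, edgeR adjusted p = 3.08e-07). In deficient cells CDKN2B fell (-0.29 ± 0.089, edgeR adjusted p = 0.0154), a call lost with the GC trend removed (-0.082, adjusted p = 0.336, range 0.00770 to 0.360 across alternatives). CDKN1B, the p27 gene, fell in both lines (-0.46 in proficient and -0.77 in deficient cells). CDKN1C, the p57 gene, had 8.08 and 8.12 CPM in resistant and 14.1 and 14.3 CPM in parental proficient libraries (-0.81 ± 0.20, edgeR adjusted p = 0.00481), and 6.08 and 4.28 CPM in resistant and 1.02 and 0.688 CPM in parental deficient libraries (2.60 ± 0.25, edgeR adjusted p = 1.03e-05). The largest change of the 7 genes in deficient cells was 1.64 with the GC trend removed. Between the parental lines 5 of the 7 were higher in proficient cells and none lower, or 7 with the trend removed, where 32.3% and 33.5% of all genes were higher.

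Of 39 other replication factors, 38 were tested. In resistant proficient cells 4 rose and 16 fell, and in resistant deficient cells 8 rose and 11 fell, with medians of -0.13 and -0.093. With the GC trend removed 5 rose and 19 fell in proficient cells, where 29.9% and 34.1% of all genes did. In deficient cells 12 then rose and 10 fell, where 32.0% and 27.9% did. The medians were then -0.19 and 0.052, and the lowest change of the list in deficient cells was -0.53. DBF4, the activating partner of CDC7, had 43.5 and 51.5 CPM in resistant and 79.8 and 80.1 CPM in parental deficient libraries (-0.75 ± 0.084, edgeR adjusted p = 2.91e-05), and 77.1 and 79.9 CPM in resistant and 121 and 119 CPM in parental proficient libraries (-0.62 ± 0.082, edgeR adjusted p = 7.99e-05). POLD3, an accessory subunit of polymerase delta, fell in both lines (-0.95 ± 0.077 in proficient and -0.65 ± 0.078 in deficient cells). Of 10 mitotic genes, 0 rose and 8 fell in proficient cells, where 25.9% and 27.8% of all genes did, and 1 rose and 7 fell in deficient cells, where 28.9% and 27.0% did. With the GC trend removed 0 of these mitotic genes rose and 10 fell in proficient cells, and 1 rose and 6 fell in deficient cells. Their summed level was 2698 to 2866 CPM in resistant and 3957 to 4157 CPM in parental proficient libraries, and 2481 to 2634 CPM in resistant and 3211 to 3280.0 CPM in parental deficient libraries. The summed level of the 46 genes was 4560.4 to 4572 CPM in resistant and 4549.7 to 4702 CPM in parental proficient libraries, and 5717 to 5869.7 CPM in resistant and 5311 to 5323 CPM in parental deficient libraries. CCND1 was the largest part of that sum, with means of 589 CPM in resistant and 419 CPM in parental proficient cells. Its means in deficient cells were 1255 CPM in resistant and 749 CPM in parental ones, so the sum does not describe the genes as a set. The part of these mitotic genes, or of the share of cells in each phase, in the changes of the 46 genes was not tested.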

How the data were processed

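Total RNA from 8 libraries was measured by RNA-seq. The authors deposited whole-number read counts per gene symbol, without normalisation, and the tools listed were featureCounts and Subread 2.0.1, Trimmomatic 0.39, DESeq2 1.24.0 and the build GRCh37, per the submitters' processing notes. The annotation, and how strand and multiply matching reads were handled, was not given in the sources used here. By RefSeq, 9 of the 46 genes overlap another coding gene. Titles gave the groups. Nothing says that replicates were separate cultures, so p-values measure the spread between these libraries, which may be technical.

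Counts were tested with edgeR 4.0.16 (R 4.3.3; quasi-likelihood, TMM, filterByExpr, 4 groups in 1 fit, 4 residual degrees of freedom), with Benjamini-Hochberg adjustment over 16221 genes. The SE is the size of the log2 change divided by the square root of F. GC correction used the longest coding transcript in GENCODE v29 (GRCh38, matched by symbol for 15378 of 16221 genes and all 46) and entered each library's natural spline of log2 CPM on GC, with 5 degrees of freedom, as an offset. The alternatives took RLE factors or bare library totals, dropped the filter or set it at 1 CPM in 2 libraries, ran DESeq2 1.42.0, fitted the 2 groups by themselves, added the replicate block or GC correction or both, and left out each library. The steps were tested on simulated data. Library values are printed for the genes that changed most in each pairwise comparison (at most 6 in each direction, averaging 5 CPM or more in 1 group), for the 5 largest differences between resistance effects and for the entry genes. GINS2 was added after its values were seen. Other lists contributed up to 3 genes per comparison with the smallest p. Some genes of these lists are not reported here. The genes and lists were chosen with earlier results of these data known.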

Additional observations from a re-analysis of the deposited data

Results flagged for a closer look

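The effect of resistance differed between proficient and deficient cells, by the test of the difference itself and by at least 1 on the log2 scale, for 4 of the 46 genes, given as proficient minus deficient. RB1 had a difference of -1.09 and was lower in both resistant proficient libraries than in both parental ones. The difference for E2F2 was -1.19. CDT1 had a difference of -1.77, and POLD1 one of -1.77. With the GC trend removed these were -1.36, -0.91, -0.68 and -0.68. All 4 then passed the adjusted p, but only RB1 kept a size of at least 1. How many of all genes tested met both limits was not counted, so the 4 do not set these genes apart. The explanation of these differences was not tested.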

How the results depend on the processing

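Every alternative kept the call for 18 of 27 called genes in proficient resistance, 29 of 34 in deficient resistance, 25 of 36 between parental lines and 17 of 30 for the difference. With the GC trend removed, in deficient resistance the sign turned, with a call on 1 of the scales, for CCNE2 0.31 (0.31 with the block), RB1 0.25 (0.25 with the block), MCM6 0.22 (0.22 with the block), MCM7 -0.25 (-0.25 with the block), RFC3 0.16 (0.16 with the block) and for the check gene BRCA1 at 0.20 (0.20 with the block). Between parental lines it turned for CCND2 -0.0052 (-0.0049 with the block), CDK6 -0.30 (-0.30 with the block), E2F1 0.24 (0.23 with the block), E2F3 -0.0090 (-0.0090 with the block), MCM6 -0.13 (-0.13 with the block), PCNA -0.16 (-0.16 with the block), POLD1 0.033 (0.036 with the block), RRM1 -0.019 (-0.019 with the block), and the count of higher genes was 9 with the trend removed, against 14. For the difference of effects TK1 turned to 0.046 (0.047 with the block). With single libraries left out, 9 to 14 genes rose and 12 to 14 fell in proficient resistance, 13 to 16 and 17 to 20 in deficient resistance, 8 to 11 were higher and 20 to 24 lower between parental lines, and the difference was positive for 8 to 15 and negative for 10 to 15. The cause of these shifts was not tested. The labels give replicate numbers no shared origin: differences between replicates 1 and 2 correlated between the groups compared at -0.10 in proficient, 0.12 in deficient and -0.052 in parental lines, and at 0.21 between the resistant lines. The replicate block left 16 rising and 18 falling in deficient resistance and 12 and 15 in proficient resistance, and changed 1 call between parental lines. With 2 libraries a group, the spread rests on all 8.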

Other observations

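Of 10 further genes of nucleotide supply, 4 rose and 3 fell in resistant proficient cells and 4 rose and 2 fell in resistant deficient cells, against 25.9% and 27.8% of all genes in proficient and 28.9% and 27.0% in deficient cells. CTPS1, which makes CTP, fell in proficient cells to 71.4 and 69.8 CPM in resistant libraries, against 154 and 151 CPM in parental libraries (-1.11 ± 0.061, edgeR adjusted p = 9.62e-08), and had a smaller fall in deficient cells (-0.27 ± 0.059, edgeR adjusted p = 0.00248). SAMHD1, which degrades deoxynucleotides, rose in proficient cells (0.92 ± 0.11, edgeR adjusted p = 3.43e-05) and fell in deficient cells (-0.34 ± 0.10, edgeR adjusted p = 0.0165). The fall was lost with the GC trend removed (-0.15, adjusted p = 0.0977, range 0.00329 to 0.101 across alternatives), and the difference of the 2 effects was 1.26 ± 0.15 (edgeR adjusted p = 6.22e-05). CHTF8 was listed at 0 in all 8 libraries, which does not show that its mRNA was absent.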
